A study of Mus musculus with 12 samples.

Results

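The libraries labelled SB4 and BS2, 6 of the 12 RNA-seq libraries analysed, were compared with each other across all genes. SB4 is labelled as brain cortex on day 4 after photothrombosis (PT) of the skull, and BS2 as interparietal bone on day 2 after PT of the brain, with 3 libraries in each group. In PT, laser light activates an injected dye and clots the small vessels it falls on. All mice were wild-type BALB/c males of 8 weeks with an optical clearing window in the skull, and every group analysed here carried an injury. The pair was chosen because both groups hold abundant neuronal transcripts, as measured in these libraries, and its libraries were then taken by their labels. The other 6 libraries, SB2 (labelled brain cortex, day 2 after skull PT) and BS6 (labelled interparietal bone, day 6 after brain PT), serve as a second pair. SB4 and BS2 differ in the labelled tissue, in the injured site and in the day at once, so these cannot be told apart, and the uninjured controls were not analysed here.

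A cortical sample mixes neurons that release glutamate or GABA with astrocytes, oligodendrocytes, microglia, vessel cells and the meninges that cover the brain. Some of its transcripts vary within minutes to days in any mouse. Immediate early genes such as Fos and Arc are switched on by neuronal firing, interferon-stimulated genes by antiviral or inflammatory signals, and microglial and astrocytic genes by injury. Other transcripts, such as those of the synaptic vesicle machinery, are usually steady between pieces of the same tissue.

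Both groups held brain transcripts. The label of BS2 as interparietal bone went against its markers, and so did that of SB2 as brain cortex. The summed level of 12 pan-neuronal genes was 10070 to 10200 CPM (counts scaled to the library's total) in BS2 and 10450 to 10670 CPM in SB4, against 216 to 288 CPM in SB2 and BS6. For single genes, CPM were also scaled by edgeR's TMM factors. Snap25, a protein of the vesicle fusion complex, was at 3305, 3276 and 3303 CPM in BS2 replicates 1 to 3 and at 3439, 3487 and 3407 CPM in SB4. The astrocyte list summed to 5818 to 6440 CPM in BS2 and to 5899 to 6087 CPM in SB4. The osteoblast and osteocyte list, by contrast, summed to 24.1 to 34.0 CPM in BS2 and 22.5 to 25.3 CPM in SB4, while SB2 reached 38170 to 42900 CPM and BS6 20440 to 75460 CPM. Ibsp, the bone sialoprotein gene, had 2, 3 and 3 counts in BS2 and 1, 3 and 3 in SB4. The group names are therefore used only as labels of libraries. Fewer cells of a type and less RNA per cell cannot be told apart in such bulk samples. The total count was 14126082 to 18972654 per library, so that 3 counts, the limit a count of 0 allows, were at most 0.212 CPM (counting error only).

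**Figure D1:**
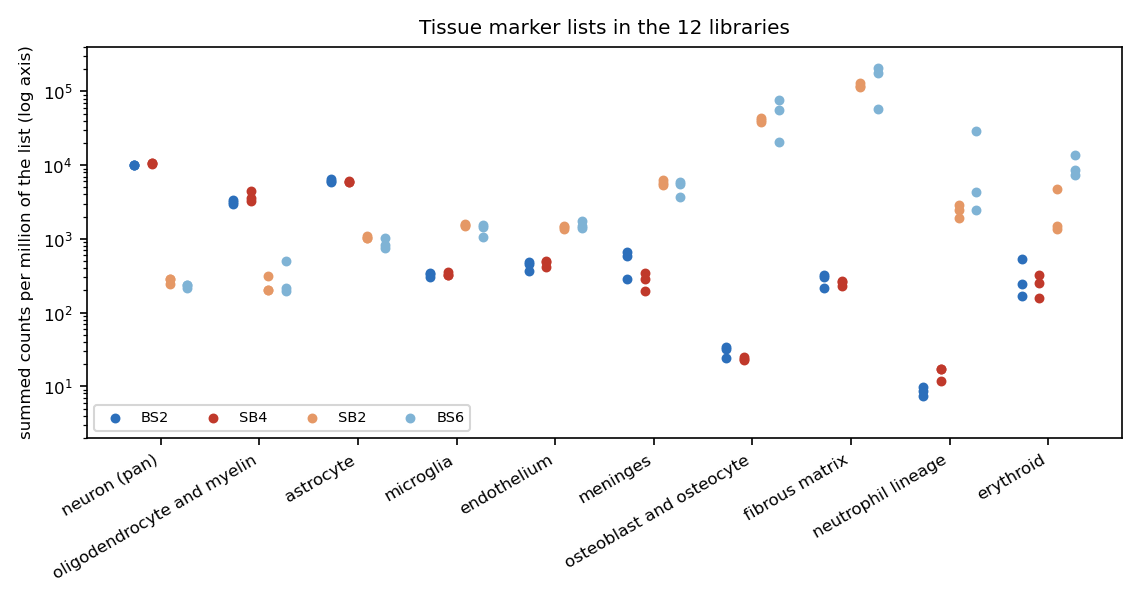
Summed CPM of 10 tissue marker lists (log axis) in the 12 libraries, 1 point per library, coloured by group. BS2 and SB4 lie together for the neuron, oligodendrocyte and astrocyte lists, far above SB2 and BS6, and far below them for the osteoblast, fibrous matrix and neutrophil lists.

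Few genes differed between the brain-rich groups. Of 16278 genes tested, 24 were called as differentially expressed genes (DEGs), 0.147% of the genes tested, at an absolute log2 fold change over 1 and an adjusted p under 0.05 (edgeR quasi-likelihood test, Benjamini-Hochberg adjustment). Of these, 14 were higher in SB4 (0.086%) and 10 lower (0.0614%). With the adjusted p alone, 153 genes passed (0.94%), 93 higher (0.571%) and 60 lower (0.369%), and 1933 genes (11.9%) had an unadjusted p under 0.05. The median absolute log2 fold change over all genes tested was 0.10 and the 99th percentile 0.99. Of the 24, 6 reached a mean of 10 CPM in their higher group. The libraries of both groups were nearly alike, with Spearman's rho of 0.9909 to 0.9934 across genes between the groups against 0.9935 to 0.9943 within them, although the first principal component, with 35.4% of the variance, set the groups apart. DESeq2 called 25 higher and 18 lower, and 21 of the 24 were among them. Tmem40 was lost, and Gm14018 and 8430432A02Rik were given no adjusted p. One fit of all 12 libraries kept 8 of the 24 (Oas1c, Oas1b, Mfap1a, Glo1, Amd-ps4, Rph3a, Gm13443 and Gm42656) and lost the other 16. A single library moved the counts. Without SB4 replicate 3 there were 68 genes higher and 17 lower, and without BS2 replicate 1 there were 12 higher and 47 lower. Genes that passed by the adjusted p alone, neighbours of called genes and examples that did not pass were picked for naming after their values were seen.

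**Figure D2:**
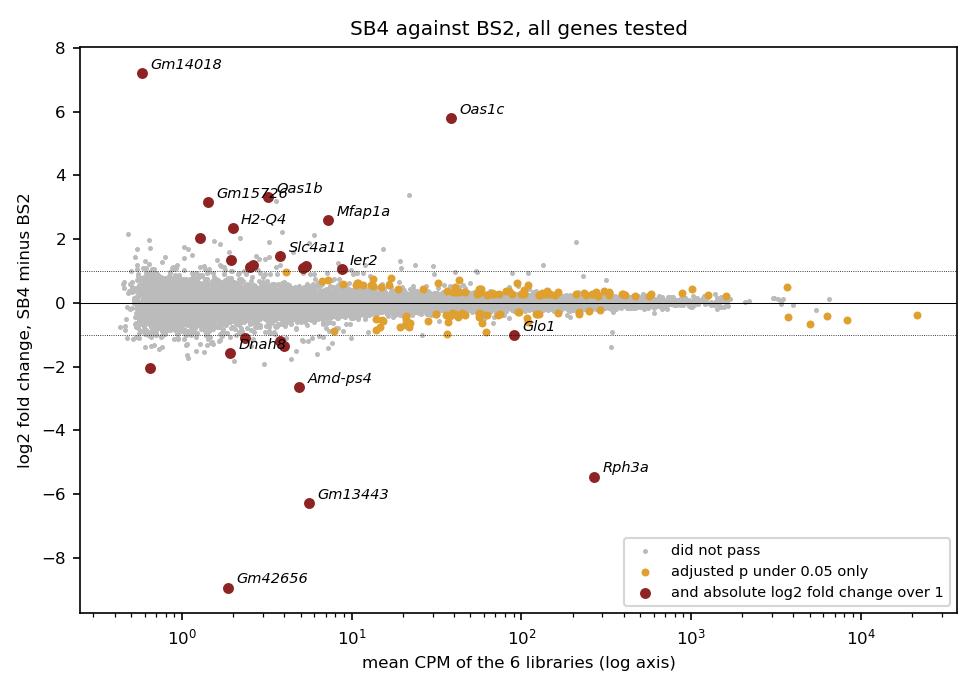
Log2 fold change of SB4 against BS2 for the 16278 genes tested, plotted against the mean CPM of the 6 libraries (log axis). Most points lie close to 0, while Oas1c and Rph3a stand far from it at levels where the other genes differ little.

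The largest differences at abundant genes lay in 1 stretch of chromosome 5. The promoters of Rph3a and Oas1c are shown because these genes, with other Oas1 genes between them, moved in opposite directions and by more than any other gene above 20 CPM in its higher group. Rph3a encodes rabphilin, a protein that binds Rab3 proteins on synaptic vesicles, and Oas1c belongs to the oligoadenylate synthetases, a family induced by interferon. Each sequence runs from 250 bases before to 50 bases after the start in RefSeq (GRCm38.p6, minus strand), at chr5:121010043-121010342 for Rph3a and chr5:120812465-120812764 for Oas1c. For Rph3a, 3 promoters were listed, and the 1 shown is that nearest to the annotated start of the gene. For Oas1c, 1 was listed. Capitals mark matches on either strand to the AP-1 letters TGANTCA in Rph3a and to the core of the interferon-stimulated response element in Oas1c, searched as GAAA, any 2 bases and GAAA.
Rph3a: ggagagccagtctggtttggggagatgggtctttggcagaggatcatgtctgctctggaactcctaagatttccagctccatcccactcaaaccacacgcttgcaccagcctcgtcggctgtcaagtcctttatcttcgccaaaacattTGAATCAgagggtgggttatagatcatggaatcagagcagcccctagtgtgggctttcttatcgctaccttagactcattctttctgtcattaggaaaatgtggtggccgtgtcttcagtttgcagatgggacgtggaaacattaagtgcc
Oas1c: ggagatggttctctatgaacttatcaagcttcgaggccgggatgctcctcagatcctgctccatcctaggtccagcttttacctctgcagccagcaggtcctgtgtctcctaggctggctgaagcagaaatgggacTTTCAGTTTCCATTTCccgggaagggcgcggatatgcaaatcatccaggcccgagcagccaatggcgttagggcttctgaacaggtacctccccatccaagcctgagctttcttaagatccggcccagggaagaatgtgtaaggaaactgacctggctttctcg
The Rph3a window held 1 AP-1 match, and 7.81% of the 32851 promoters of this length held at least 1. The Oas1c window held 2 overlapping response element matches, which start 114 and 108 bases before the gene's start, and 3.44% of all promoters had at least 1. The matches describe letters and are no evidence of binding.

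Rph3a was abundant in BS2 and low in SB4. It was at 514, 506 and 546 CPM in BS2 replicates 1 to 3 and at 10.9, 12.1 and 12.7 CPM in SB4, so every SB4 library lay far below every BS2 library. The log2 fold change was -5.45 (standard error 0.07, adjusted p = 2.42e-22 by edgeR). In SB2 and BS6, where few neuronal transcripts were found, Rph3a had 37, 46 and 5 counts and 1, 12 and 0 counts. Gm42656, a transcript model within Rph3a on the same strand, had 64, 46 and 63 counts in BS2 and 0 in all SB4 libraries, at least 21.02-fold lower against a floor of 3 counts per library.

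Oas1c went the other way. It was at 1.29, 1.44 and 1.37 CPM in BS2 and at 82.2, 67.8 and 77.8 CPM in SB4, where every library was high. The log2 fold change was 5.79 (standard error 0.13, adjusted p = 3.33e-18 by edgeR). Its level was low in all of the other libraries, with 18 to 28 counts in SB2 and 15 to 68 in BS6, so SB4 was the highest group. Oas1b, which starts 0.12 kb from Oas1c on the other strand (chr5:120812635-120824163) and is annotated as a polymorphic pseudogene, had 11, 8 and 8 counts in BS2 and 84, 95 and 120 in SB4 (log2 fold change 3.32, standard error 0.26). Oas1b was also present in SB2, at 120 to 141 counts, above Oas1c there. In BS6 it had 66 to 212 counts, a range that overlapped that of Oas1c. Oas1a, between Oas1b and Rph3a, was too low to be tested and was seen in the groups of day 2. It had 4, 8 and 5 counts in BS2 and 179, 146 and 157 in SB2, and 0 in each SB4 and BS6 library.

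The flanks of this cluster did not pass. Dtx1, on the side of Oas1c, had a log2 fold change of 0.13 (standard error 0.06), and Oas2 one of 1.70 (standard error 0.83, adjusted p = 0.486 by edgeR). Ptpn11, past Rph3a, was at 2642 to 3215 counts in BS2 and 2908 to 3797 in SB4. Reads of the Oas1 paralogs can be shared or split by counting, so the levels of single members are uncertain.

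Of the machinery that Rph3a belongs to, 2 of 22 genes tested passed by the adjusted p, Rph3a itself among them. Over all genes 0.94% passed. The list is shown because of Rph3a and counts it, so nothing can be read from the higher share. In this list of 24 genes for Rab3 proteins and vesicle priming, Rph3a was lower and Rims3, an active zone protein, passed by the adjusted p alone (343, 354 and 363 CPM in BS2; 416, 454 and 409 in SB4; log2 fold change 0.27, standard error 0.05). The other 20 did not pass. Rab3a, the small GTPase that rabphilin binds, was at 459, 460 and 429 CPM in BS2 and at 469, 475 and 464 CPM in SB4. The related calcium sensors Doc2a and Doc2b differed by 0.09 and -0.13 on the log2 scale (standard errors 0.10 and 0.14). The list's median was 0.01, against -0.00181 over all genes tested.

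On chromosome 2, 3 neighbouring genes were higher in SB4. Mfap1a and its paralog Mfap1b encode a protein of the splicing machinery, and Gm14018, an unprocessed pseudogene, lies between them. Mfap1a (chr2:121491911-121506665, minus strand) was at 2.23, 2.13 and 1.65 CPM in BS2 and at 16.3, 12.9 and 8.19 CPM in SB4, with no overlap (log2 fold change 2.61, standard error 0.25). Mfap1b (chr2:121460235-121474067, minus strand) was at 2.93, 3.20 and 3.74 CPM against 8.95, 6.60 and 5.48 CPM (1.08, standard error 0.20), and its call was lost without SB4 replicate 1. Gm14018 had 0 counts in every BS2 library and 27, 17 and 13 in SB4, at least 6.03-fold higher against the floor. Its call was lost in the fit of all 12 libraries (adjusted p = 0.236 by edgeR). The genes on either side, Hypk and Wdr76, had log2 fold changes of -0.65 (standard error 0.38) and 0.21 (standard error 0.17) and did not pass. Since the copies are near-identical, reads may be split between them.

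The third group of neighbours lay on chromosome 17. Glo1 encodes glyoxalase, which detoxifies methylglyoxal, and its level is known to vary between mouse strains, while all mice here are labelled BALB/c. It was at 118, 124 and 122 CPM in BS2 and at 60.8, 63.6 and 55.6 CPM in SB4, with no overlap (log2 fold change -1.02, standard error 0.06, adjusted p = 1.47e-09 by edgeR). Without SB4 replicate 3 the value was -0.96 and passed by the adjusted p alone. Dnah8, an axonemal dynein gene whose start overlaps Glo1 by 2.52 kb on the other strand (chr17:30624354-30877365), was at 3.17, 2.45 and 3.02 CPM against 0.916, 1.05 and 0.922 CPM (-1.57, standard error 0.28). Its call was lost in the fit of all 12 libraries (adjusted p = 0.0675 by edgeR) and under glmTreat (0.232). Of other genes listed as variable between strains, Nnt (0.14, standard error 0.08) and Apobec3 (0.01, standard error 0.33) did not pass. Btbd9, next to Glo1, did not pass either (-0.23, standard error 0.06). Without knowing whether counting used strand, reads at the overlap cannot be assigned. In all, 9 of the 24 called genes lay within 200 kb of another called gene, in these 3 loci.

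**Figure D3:**
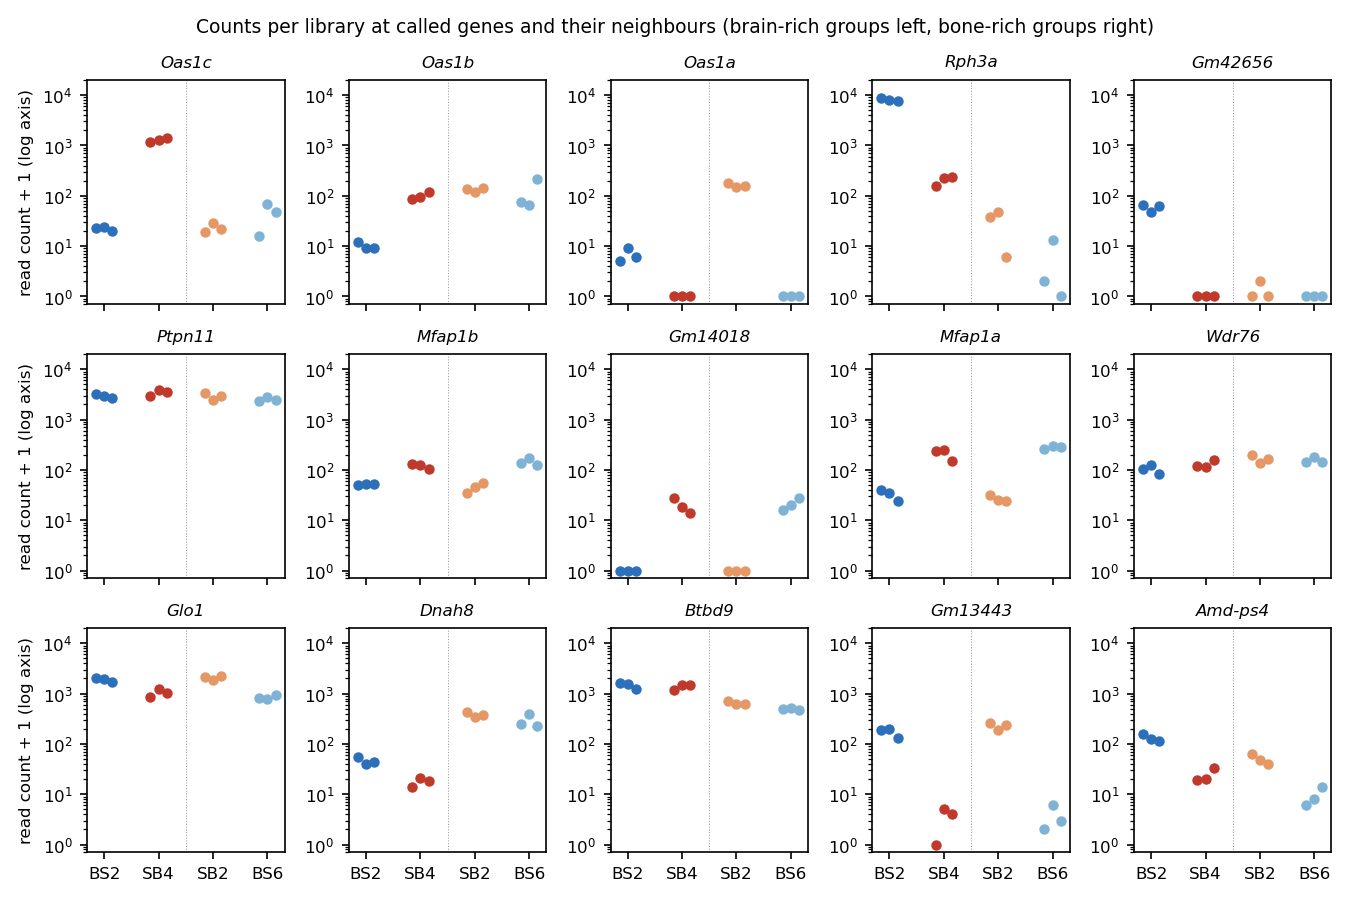
Read count plus 1 (log axis) in each of the 12 libraries for called genes and their neighbours, 3 points per group, with the brain-rich groups left of the dotted line. Rph3a and Oas1c separate BS2 from SB4, Ptpn11 and Wdr76 do not, and Gm13443, Glo1, Mfap1a and Gm14018 are alike in BS2 and SB2 and alike in SB4 and BS6.

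The other called genes were low. Among those higher in SB4, S100a9, a calcium-binding protein of neutrophils, was at 0.469, 0.376 and 0.646 CPM in BS2 and 2.26, 2.78 and 1.14 CPM in SB4 (log2 fold change 2.04, standard error 0.40). The whole neutrophil list summed to 7.43 to 9.70 CPM in BS2 and 11.7 to 17.3 CPM in SB4, against 1936 to 29380 CPM in SB2 and BS6, and 4 of its 13 genes were tested. Adm, which encodes the vasodilator adrenomedullin and is induced by hypoxia, was at 0.821, 1.51 and 0.934 CPM against 2.89, 2.83 and 2.66 CPM (1.35, standard error 0.29). The other 15 hypoxia genes tested did not pass by edgeR, where 0.94% of all genes did, while of all 16 DESeq2 passed 2 and 4 had an unadjusted p under 0.05. Those that did not pass by edgeR include Vegfa (0.24, standard error 0.10) and Ldha (0.13, standard error 0.06). H2-Q4, a class I histocompatibility gene with close paralogs, was at 0.469, 0.690 and 0.790 CPM against 3.95, 4.56 and 1.46 CPM (2.35, standard error 0.43). Among the fits that left out 1 library, H2-Q4 lost its call in 4 of 6 (without SB4 replicate 1 or any BS2 library), with log2 fold changes of 2.02 to 2.72. Adm lost it in 3 (without SB4 replicate 1, BS2 replicate 1 or BS2 replicate 3; 1.17 to 1.67) and S100a9 in 3 (without SB4 replicate 2, BS2 replicate 2 or BS2 replicate 3; 1.74 to 2.35). Slc4a11, Fggy, Rab11fip1, Gm15726 and 4933406C10Rik were also higher, by 1.12 to 3.17 on the log2 scale.

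Among genes lower in SB4, the microglial gene Fcrls was at 4.69, 6.09 and 5.17 CPM in BS2 and 1.83, 2.94 and 2.06 CPM in SB4 (-1.21, standard error 0.22), with no overlap. Gm13443, a processed pseudogene, had 187, 200 and 133 counts in BS2 and 0, 4 and 3 in SB4 (-6.28, standard error 0.33). Amd-ps4, a pseudogene of a polyamine synthesis enzyme, had 154, 127 and 115 counts against 18, 19 and 33 (-2.63, standard error 0.21). Ubtd1, Tmem40 and 8430432A02Rik had log2 fold changes of -1.35, -1.12 and -2.03. Tmem40, 8430432A02Rik and Rab11fip1 were each lost in at least 5 of the 6 fits that left out 1 library, and Fggy in 4. Fcrls was lost without BS2 replicate 2, and Ubtd1 without BS2 replicate 2 or 3.

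The comparison of SB2 with BS6, which shares no library with the one above, asked whether the same genes separate the bone-rich groups. There, 303 of 16329 genes were called (1.86%), 121 higher in SB2 (0.741%) and 182 lower (1.11%). Of the 24 genes, 21 were tested in it and 8 were called, and all 8 had the opposite sign: Gm14018, Gm13443, Amd-ps4, Mfap1a, H2-Q4, 4933406C10Rik, Mfap1b and Glo1. These are 33.3% of the 24 and 2.64% of the 303. With DESeq2 for both comparisons, 43 and 1058 genes were called and 12 were shared (27.9% and 1.13%), all 12 with opposite signs. For Gm14018, Gm13443, Mfap1a, Mfap1b and Glo1, the counts of BS2 lay near those of SB2, the other group of day 2, and the counts of SB4 near those of BS6. Glo1 had 1698 to 2018 counts in BS2 and 1830 to 2260 in SB2, against 863 to 1213 in SB4 and 780 to 927 in BS6. Mfap1a had 23 to 38 and 23 to 31 counts in the groups of day 2, and 151 to 246 and 265 to 303 in SB4 and BS6. Gm13443 had 133 to 265 counts in the groups of day 2 and 0 to 5 in the later ones, a split that cut across brain-rich and bone-rich libraries. The other 3 did not pair in this way. H2-Q4 was higher in the bone-rich groups, with 236 to 307 counts in SB2 and 583 to 1377 in BS6 against 8 to 11 in BS2 and 27 to 87 in SB4. Amd-ps4 had 39 to 63 counts in SB2, between BS2 (115 to 154) and SB4 (18 to 33), and 5 to 13 in BS6. The counts of 4933406C10Rik were 41 to 71 in BS2, nearer to the 62 to 73 of BS6 than to the 18 to 26 of SB2. For the 5 genes above, both sides of the split held both injured sites and both labelled tissues. The day and any unlabelled difference in how these libraries were made cannot be told apart.

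Over the 21 genes, 16 had opposite signs in both comparisons and 5 the same sign. The difference between both log2 fold changes was tested over all 12 libraries, and 14 of the 24 genes passed. Over all genes 8.58% did, but nothing can be read from the higher share, since the 24 were chosen by one of the differences that enter the test. For Oas1b (3.32 and 0.11) and Dnah8 (-1.57 and 0.33) the test mostly restates that choice. Rph3a (2.70, standard error 1.20) and Oas1c (-0.97, standard error 0.55) did not pass in SB2 against BS6. Nor did Adm (0.66, standard error 0.42), Slc4a11 (0.21, standard error 0.37) or Fcrls (0.04, standard error 0.37). With the adjusted p alone in both comparisons, 20 genes were shared, 17 of them with opposite signs, among them Ctps2, a CTP synthase (-0.96 and 1.89), Slc7a11, the cystine transporter (-0.70 and 1.38), and C1qb of the complement (0.55 and -0.55).

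**Figure D4:**
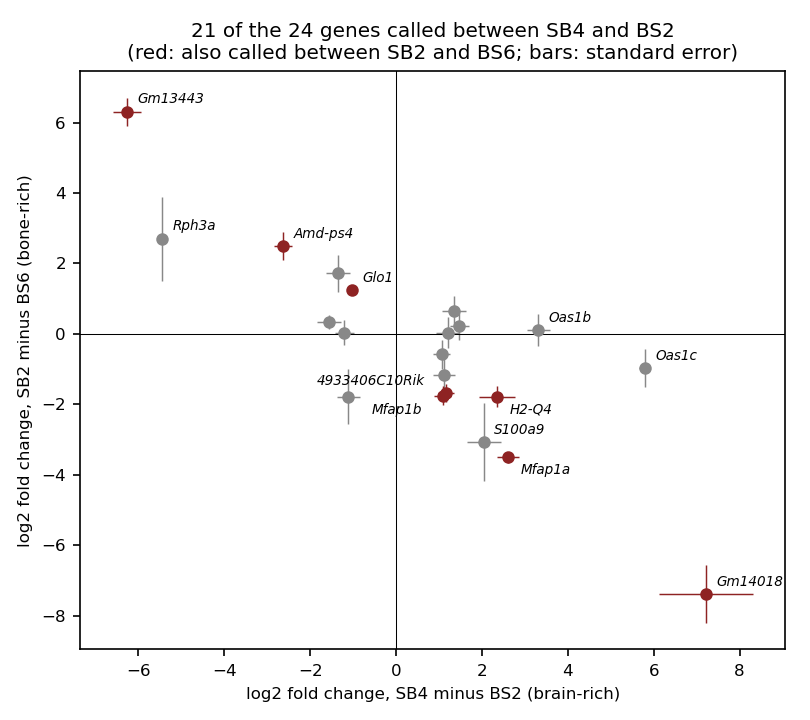
Log2 fold change of SB4 against BS2 (x axis) and of SB2 against BS6 (y axis) for 21 called genes, with standard errors as bars and genes called in both in red. All 8 red points lie in the quadrants of opposite sign, and Oas1b lies near 0 on the y axis (0.11).

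Immediate early genes, which neurons transcribe within minutes of firing, had mostly positive log2 fold changes, but 3 of 23 passed by edgeR's adjusted p, where 0.571% of all genes passed as higher. Of the 24 listed genes 23 were tested, 19 had a positive log2 fold change and the median was 0.73, against -0.00181 over all genes. Libraries did not overlap for 12 of them, all with SB4 above, where 8.79% of all genes tested lay that way, but Ier2 alone was called by edgeR, and Fosb and Fosl2 passed by the adjusted p alone. DESeq2 passed 10 of the 23 by its adjusted p, all higher, and over all genes it passed 167 as higher and 90 as lower. The Fosb and Fos promoters are shown as those of 2 members that share a motif, although Fos did not pass by edgeR. They come from RefSeq (GRCm38.p6) at chr7:19309996-19310295 on the minus strand and chr12:85473640-85473939 on the plus strand. Capitals mark TGACG, the core of the cyclic AMP response element, on either strand.
Fosb: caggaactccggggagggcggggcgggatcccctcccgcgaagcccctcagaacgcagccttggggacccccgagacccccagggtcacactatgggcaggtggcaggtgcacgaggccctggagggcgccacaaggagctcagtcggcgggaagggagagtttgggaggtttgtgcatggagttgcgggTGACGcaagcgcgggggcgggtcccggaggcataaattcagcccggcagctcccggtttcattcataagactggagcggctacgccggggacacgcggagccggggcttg
Fos: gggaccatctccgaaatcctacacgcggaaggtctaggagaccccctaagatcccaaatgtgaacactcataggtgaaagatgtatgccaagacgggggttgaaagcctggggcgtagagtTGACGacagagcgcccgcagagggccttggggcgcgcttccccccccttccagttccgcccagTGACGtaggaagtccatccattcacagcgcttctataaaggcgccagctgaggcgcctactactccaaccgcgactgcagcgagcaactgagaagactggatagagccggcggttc
The core occurred in Fosb at 1 place, 60 bases before the start, and at 129 and 66 bases before the start in Fos, and 20.8% of all promoters held at least 1. The full element TGACGTCA, which 1.79% held, was in neither window.

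Ier2 was at 5.52, 6.09 and 5.24 CPM in BS2 and at 15.01, 7.86 and 12.6 CPM in SB4 (log2 fold change 1.06, standard error 0.21). Its call was lost without SB4 replicate 1 and without each of the BS2 libraries (0.86 to 1.29 over the 6 fits). Fosl2, a partner of Jun in AP-1, was at 31.7, 31.6 and 32.8 CPM against 59.8, 47.2 and 52.3 CPM (0.72, standard error 0.08), and Fosb at 8.92, 10.8 and 10.1 CPM against 20.4, 14.5 and 15.6 CPM (0.75, standard error 0.13). For all 3 genes, replicate 2 was the lowest SB4 library and still above all of BS2. Arc, a regulator of synaptic receptors, was at 79.6, 90.1 and 96.7 CPM in BS2 and at 443, 156 and 399 CPM in SB4. It did not pass (1.90, standard error 0.47, adjusted p = 0.26 by edgeR). SB4 replicates 1 and 3 exceeded all BS2 libraries at 20 and 18 of the 23 genes, and replicate 2 at 12. Over all genes tested, replicates 1, 2 and 3 did so at 27%, 26.8% and 25.8%. Below all BS2 libraries, replicates 1, 2 and 3 lay at 1, 6 and 1 of the 23. Without SB4 replicate 2, 15 of the 23 passed, where 1.1% of all genes did in that fit, and 9 of them were DEGs. Replicate 2 was singled out by these same values, so that fit is no test of the difference. Arc had a log2 fold change of 2.25 in it. Without SB4 replicate 1 or 3, Arc had 1.65 and 1.75 and did not pass (adjusted p = 0.502 and 0.419 by edgeR). Of the 23 genes, 4 passed without SB4 replicate 1, all higher. Without SB4 replicate 3, 3 passed as higher, and Jun passed as lower (-0.49). Without BS2 replicate 3, Fosl2 alone passed.

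Slower activity genes did not pass by edgeR. All 17 of them, such as Bdnf, a neurotrophin (0.27, standard error 0.18), and Homer1, a synaptic scaffold (0.33, standard error 0.16), were tested, with a median of 0.26. Over all genes, 0.94% passed and 11.9% had an unadjusted p under 0.05. Of these 17, 5 had an unadjusted p under 0.05, and 3 passed by DESeq2. In the libraries, SB4 replicate 2 exceeded all BS2 libraries at 2 of the 17, against 11 and 10 for replicates 1 and 3. Over all genes tested, replicates 1, 2 and 3 did so at 27%, 26.8% and 25.8%. Below all BS2 libraries, replicates 1, 2 and 3 lay at 2, 7 and 0 of the 17. Per1, a clock gene that firing also induces, passed by the adjusted p alone, at 77.4, 75.5 and 69.3 CPM in BS2 and 122, 101 and 119 CPM in SB4 (0.62, standard error 0.07). The other 16 clock genes did not, among them Arntl (-0.17, standard error 0.08) and Dbp (-0.15, standard error 0.15). Of all 17 clock genes, 11 had a positive log2 fold change, and 1 passed by DESeq2. An unadjusted p under 0.05 was reached by 6 of them, 5 higher and 1 lower, where 11.9% of all genes reached it.

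**Figure D5:**
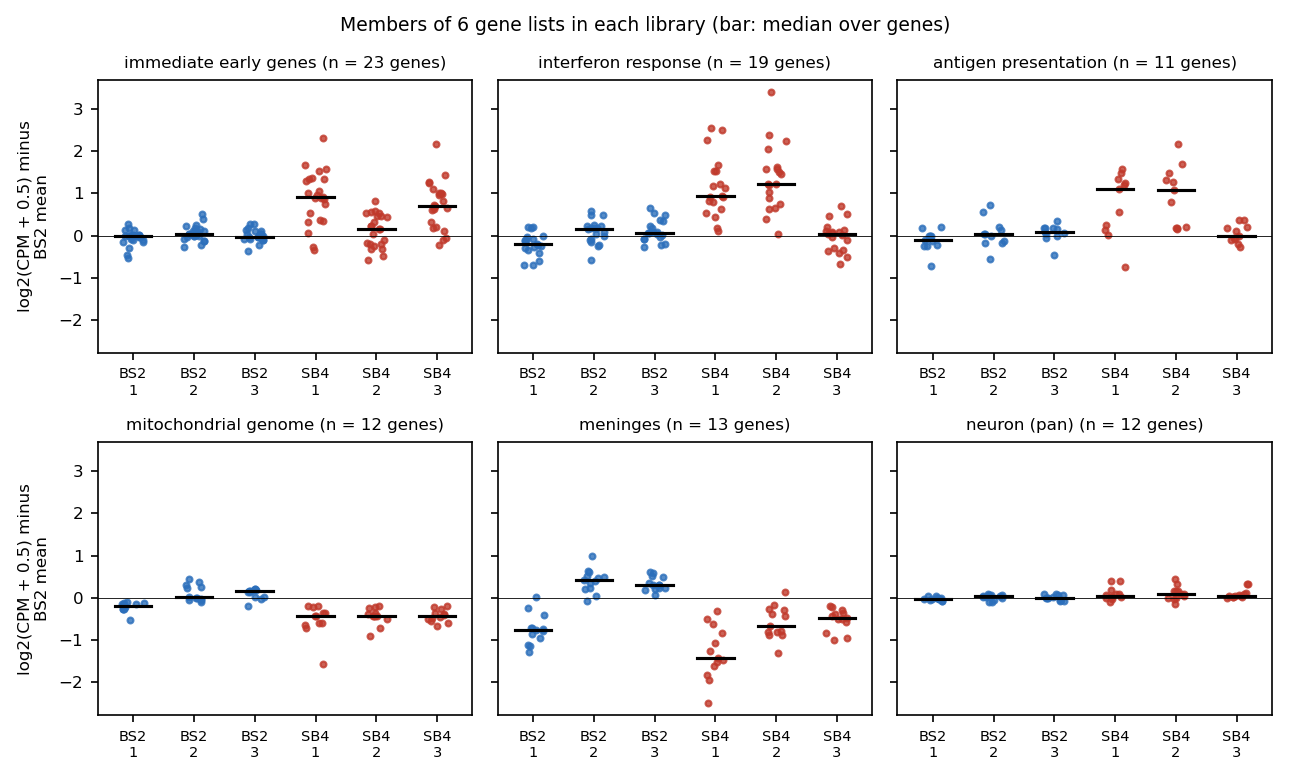
Members of 6 gene lists in each BS2 and SB4 library, as log2(CPM + 0.5) minus the mean of BS2, 1 point per gene and a bar at the median. The immediate early genes lie higher in SB4 replicates 1 and 3, the interferon and antigen presentation genes in replicates 1 and 2, and the mitochondrial genes lie below 0 in all 3 SB4 libraries.

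Interferon-stimulated genes had higher levels in SB4 replicates 1 and 2 than in replicate 3, a different library from the lowest one among the immediate early genes. Of the 19 tested, 0 passed by edgeR, although all 19 had a positive log2 fold change (median 0.93). An unadjusted p under 0.05 was reached by 9, where 11.9% of all genes reached it, and DESeq2 passed 2. This list does not hold Oas1c and Oas1b, called above, which were higher than BS2 in all 3 SB4 libraries. Irf7, the factor that amplifies the response, was at 1.17, 0.690 and 2.30 CPM in BS2 and at 7.96, 8.80 and 2.38 CPM in SB4. Iigp1, an interferon-induced GTPase, was at 0.704, 0.690 and 0.718 CPM against 6.48, 12.1 and 0.759 CPM. Several antigen presentation genes split the SB4 libraries in the same way. B2m, the shared chain of class I molecules, was at 34.0, 37.6 and 38.1 CPM against 83.8, 91.3 and 41.2 CPM (0.98, standard error 0.36), and 0 of the 11 tested passed by edgeR, with a median of 0.94, 4 at an unadjusted p under 0.05 and 1 by DESeq2. The antigen presentation list does not hold the class I genes H2-Q4, called above, and H2-T22. H2-T22 passed by the adjusted p, at 4.69, 5.02 and 5.53 CPM in BS2 and 8.81, 8.80 and 7.16 CPM in SB4 (0.70, standard error 0.16), where all 3 SB4 libraries were above BS2. SB4 replicates 1 and 2 each exceeded all BS2 libraries at 17 of the 19 interferon genes. Replicate 3 did so at 6, a share near the 25.8% of all genes at which it did. Without SB4 replicate 3, 15 of 22 interferon genes and 5 of 11 antigen presentation genes passed, where 1.52% of all genes did. Of these interferon genes 14 were called. Replicate 3 was singled out by these same values, so that fit is no test of the difference. Irf7 had a log2 fold change of 2.63 in it. Without SB4 replicate 1 or 2, Irf7 had 2.04 and 1.89 and did not pass (adjusted p = 0.589 and 0.467 by edgeR). In the other fits that left out 1 library, 0 or 1 interferon genes passed.

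Of the transcripts of the mitochondrial genome, some were lower in SB4 and 1 ribosomal RNA higher. Of 12 protein-coding genes tested, 6 passed as lower by the adjusted p, where 0.369% of all genes did, and 0 reached the fold threshold: mt-Nd1, mt-Nd2 and mt-Nd4 of complex I, mt-Cytb, mt-Co1 and mt-Atp6. All 12 had a negative log2 fold change (median -0.42), and 10 did not overlap, where 7.91% of all genes tested lay below. mt-Nd2 was at 5545, 5901 and 6975 CPM in BS2 and at 3910, 3748 and 4041 CPM in SB4 (-0.66, standard error 0.07), and mt-Cytb at 8948, 9694 and 10760 CPM against 6431, 6860 and 6953 CPM (-0.54, standard error 0.06). In both, BS2 replicate 3 was the highest library. The ribosomal RNA mt-Rnr2 went the other way, at 2826, 3003 and 3263 CPM against 4702, 4178 and 4058 CPM (0.51, standard error 0.06). Of 77 nuclear genes of oxidative phosphorylation, 0 passed by edgeR or DESeq2 and 8 had an unadjusted p under 0.05 (median -0.05). Without BS2 replicate 1, 10 of 13 mitochondrial genes passed (0.86% of all genes in that fit), and without BS2 replicate 2, 3 of 12 (0.878%). The libraries were made from poly(A) RNA, and the part of RNA quality in these values was not tested.

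By the adjusted p, 2 of 13 astrocyte genes and 3 of 15 microglial genes passed, where 0.94% of all genes did. Gfap, the filament protein that astrocytes raise after injury, was at 64.1, 73.9 and 75.2 CPM in BS2 and at 47.8, 42.0 and 49.3 CPM in SB4 (-0.62, standard error 0.08), so every SB4 library was lower. Gja1, the astrocytic gap junction protein, was at 190, 166 and 189 CPM against 143, 147 and 151 CPM (-0.30, standard error 0.06). The other 11 astrocyte genes did not pass, and the other 11 tested genes of the reactive astrocyte list, such as Vim (-0.21, standard error 0.16), did not either. In microglia, C1qb and C1qc of the complement were higher, C1qb at a mean of 13.5 CPM in BS2 and 19.9 CPM in SB4, while Fcrls was lower. The remaining 12 microglial genes did not pass, among them P2ry12 (-0.28, standard error 0.08) and Cx3cr1 (0.03, standard error 0.09), and the list summed to 306 to 341 CPM in BS2 and 323 to 351 CPM in SB4. Of 16 myelin genes 0 passed by edgeR or DESeq2, with a median of 0.15, and 2 had an unadjusted p under 0.05 (11.9% of all genes). SB4 replicates 1, 2 and 3 exceeded all BS2 libraries at 16, 7 and 3 of these genes. Over all genes tested, they did so at 27%, 26.8% and 25.8%. Below all BS2 libraries, the same replicates lay at 0, 2 and 7 of the 16.

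Meningeal genes had lower values in SB4 but did not pass. All 13 tested had a negative log2 fold change, with a median of -0.97, 4 had an unadjusted p under 0.05 (11.9% of all genes) and 0 passed by edgeR (0.94% of all genes) or DESeq2. Ptgds, a prostaglandin synthase of the meninges, was at 248, 575 and 512 CPM in BS2 and 173, 237 and 297 CPM in SB4, so BS2 replicate 1 overlapped SB4. Slc13a4, a sulfate transporter, was at 4.05, 13.6 and 14.4 CPM against 2.04, 4.87 and 4.61 CPM (-1.43, standard error 0.64). The list summed to 289, 666 and 591 CPM in BS2, 199 to 341 CPM in SB4 and 3662 to 6343 CPM in SB2 and BS6. Without BS2 replicate 1, 5 of 13 passed, where 0.86% of all genes did in that fit: Slc13a4, Foxd1, Crabp2, Aldh1a2 and Slc22a6. That library was singled out by these same values, so the fit is no test of the difference. In the other fits that left out 1 library, 0 passed. Choroid plexus genes were near the floor, at 2.83 to 4.81 CPM summed in BS2 and 3.11 to 4.48 CPM in SB4.

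Across the neuronal lists single genes passed by the adjusted p, where 0.94% of all genes did. Of 9 glutamatergic cortical genes, 14 interneuron genes, 8 upper and 14 deep layer genes, 0 passed by edgeR or DESeq2, and 0, 2, 2 and 2 had an unadjusted p under 0.05. Among 12 pan-neuronal genes 2 passed, the neurofilaments Nefm and Nefh. Nefh was at 87.9, 85.5 and 95.0 CPM in BS2 and at 119, 123 and 113 CPM in SB4 (0.40, standard error 0.06). Of lists for other brain regions, the striatal phosphodiesterase Pde10a passed, at 81.4, 86.7 and 98.4 CPM against 139, 134 and 116 CPM (0.55, standard error 0.08). The other striatal genes tested, such as Drd1, did not. Of the 11 striatal genes tested, 10 had a positive log2 fold change (median 0.11), and 2 had an unadjusted p under 0.05. The striatal list, which holds Pde10a, summed to 358.8 to 412.5 CPM in BS2 and 435.5 to 490 CPM in SB4. Wfs1 was the sole one of 13 hippocampal genes tested to pass by edgeR. It was at 73.6, 91.7 and 79.0 CPM against 64.6, 61.9 and 62.9 CPM (-0.37, standard error 0.07). DESeq2 passed 2 of the 13, and 6 had an unadjusted p under 0.05 (11.9% of all genes), all of them lower in SB4. The hippocampal list summed to 478.3 to 532.5 CPM in BS2 and 451.8 to 466.8 CPM in SB4. Among potassium channel genes, Kcng1 was higher (0.51, standard error 0.12) and Kcnj2, an inward rectifier, lower (22.7, 25.2 and 24.4 CPM against 14.2, 15.7 and 12.7 CPM; -0.76, standard error 0.10). Grin1, the obligate subunit of NMDA receptors, was the sole one of 25 glutamate receptor genes to pass by edgeR (0.25, standard error 0.05), with 2 by DESeq2 and 9 at an unadjusted p under 0.05, and 0 of 12 GABA receptor genes did by edgeR or DESeq2 (2 at an unadjusted p under 0.05).

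Of the listed cell death genes, a subject of the study, 1 passed by edgeR, where 0.94% of all genes did. Of 25 apoptosis, 7 necroptosis, 8 pyroptosis and 11 cuproptosis genes tested, 0 passed by edgeR or DESeq2, and 5, 0, 2 and 1 had an unadjusted p under 0.05. Their medians were 0.02, -0.04, -0.02 and -0.02. Of 20 ferroptosis genes, Slc7a11, which imports cystine for glutathione, passed by the adjusted p alone. It was at 22.8, 26.7 and 27.8 CPM in BS2 and at 15.7, 14.5 and 17.1 CPM in SB4 (-0.70, standard error 0.10), with no overlap. Gpx4, the glutathione peroxidase that guards against ferroptosis, did not pass. The lists do not hold every such gene. Outside them, Hrk, an activator of apoptosis in neurons, was at 46.6, 38.3 and 49.3 CPM in BS2 and at 28.8, 27.4 and 31.6 CPM in SB4 (-0.61, standard error 0.09), with no overlap. Dffa, an inhibitor of the nuclease that cuts DNA in apoptosis, was higher in SB4 (0.35, standard error 0.08). Outside the lists, the largest differences by the adjusted p alone at over 40 CPM were those of Ctps2 (49.3, 44.9 and 48.9 CPM against 26.8, 26.2 and 20.8 CPM) and Snx32, a sorting nexin (77.8, 84.8 and 80.5 CPM against 41.7, 44.4 and 43.3 CPM; -0.91, standard error 0.06), both chosen after their values were seen.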

How the data were processed

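RNA was measured in 12 libraries of 4 groups with 3 libraries each, which the study describes as biological replicates. Per the paper's methods and the submitters' processing notes, the authors trimmed paired-end poly(A) reads with fastp, aligned them to mm10 with HISAT2 2.1.0 and deposited raw counts per gene symbol. The counting program, annotation and strand setting are not given in the sources used here, nor is whether a batch correction came before the deposited counts.

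The 6 libraries of SB4 and BS2 were fitted alone in R 4.3.3, with low genes removed by filterByExpr (minimum count 10), TMM scaling and the robust quasi-likelihood test of edgeR 4.0.16, adjusted after Benjamini-Hochberg over all genes tested. Positive values mean higher in SB4. SB2 against BS6 was fitted in the same way, and the difference of both over all 12 libraries. DESeq2 1.42.0, other scalings and filters, a replicate block, glmTreat and leaving out each library were alternatives. Totals were 14126082 to 18972654 counts in the 6 libraries, and counting intervals do not cover differences between animals. Gene positions came from GENCODE M21, which matched 21987 symbols, and promoters from RefSeq (GRCm38.p6). The code was tested on simulated data.

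Genes were named if called, without overlap and at 10 CPM or more in the higher group, if among the 5 most abundant called genes in each direction, or if called members of a list. Up to 3 defining members could be given for lists without a call. The other called genes, predicted ones included, were named after their values were seen, so that all 24 are accounted for, as were genes that passed by the adjusted p alone and neighbours. Members and lists were chosen with earlier results of these data known. Lists have counts and medians and no test of their own.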

Additional observations from a re-analysis of the deposited data

Results flagged for a closer look

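For 14 of the 24 called genes, the log2 fold change of SB4 against BS2 differed from that of SB2 against BS6 in a test of the difference itself over all 12 libraries (edgeR quasi-likelihood, Benjamini-Hochberg adjustment). The 24 were chosen by SB4 against BS2, which enters this test, so their share says nothing beside that of all genes. The difference was positive for Gm14018 (14.64, adjusted p = 0.0053 by edgeR), Oas1c (6.80), Mfap1a (6.15, adjusted p = 1.86e-05 by edgeR), H2-Q4 (4.16), Gm15726 (3.37), Oas1b (3.23), 4933406C10Rik (2.88) and Mfap1b (2.87). It was negative for Gm13443 (-12.56, adjusted p = 6.96e-06 by edgeR), Rph3a (-8.10), Amd-ps4 (-5.09), Ubtd1 (-3.05), Glo1 (-2.23, adjusted p = 1.86e-05 by edgeR) and Dnah8 (-1.87). The adjusted p of Gm15726 was the highest of the 14, at 0.0466 by edgeR. Gm15726 was not tested in SB2 against BS6 alone, and Gm14018 rests on groups at 0 counts, so its fitted values depend on the prior count.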

How the results depend on the processing

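Scaling left the calls nearly as they were (14 higher in SB4 throughout, 11 or 12 lower), and 0 of 2438 gene values under the alternatives reversed, while 706 lost their side of the threshold. The counts moved more, from 14 higher and 10 lower as called, 93 and 60 by the adjusted p alone, and 8 shared with SB2 against BS6 at opposite sign. DESeq2 gave 25 and 18 calls and 167 higher by the adjusted p alone. Without a filter there were 26 and 24 calls, 190 and 94 by the adjusted p alone, and 13 shared. At least 10 counts in every library left 9 higher and 5 shared. One fit of all 12 libraries gave 3 and 5 calls, 3 and 6 by the adjusted p alone, and 4 shared, and 16 of the 24 genes lost their call there, as did 14 under glmTreat. The fit that was not robust gave 28 higher, and glmTreat 5 and 6, with 5 shared. The adjusted p alone in both comparisons gave 17 shared. Leaving out 1 library gave 11 to 68 higher, 7 to 47 lower, 39 to 169 and 32 to 98 by the adjusted p alone, and 7 to 24 shared. The highest counts of higher and shared genes came without SB4 replicate 3, and of lower genes without BS2 replicate 1. The causes were not tested.

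A replicate block gave 22 higher and 39 lower, and 120 lower by the adjusted p alone. Deviations of libraries with the same number correlated at 0.102, 0.026 and 0.0115, so the numbers were not taken as pairs. All 24 genes kept their call under the block.

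Oas1c, Oas1b, Mfap1a, Amd-ps4, Rph3a, Gm13443 and Gm42656 kept their call under every alternative that tested them. At this depth, 3 counts amount to 0.158 to 0.212 CPM, and differences below that were not detectable.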

Other observations

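In other lists, single genes passed by the adjusted p as higher in SB4, where 0.571% of all genes did. They were Abcc9, a potassium channel subunit, of 11 pericyte and smooth muscle genes (0.56 on the log2 scale), Hif3a of 15 glucocorticoid genes (0.96), Cacna1h, a calcium channel, of 35 sodium and calcium channel genes (0.36), and Adrb1, a beta-adrenergic receptor, of 30 monoamine and acetylcholine receptor genes (0.38). An unadjusted p under 0.05 was reached by 1, 3, 7 and 10 genes of these lists, in that order, where 11.9% of all genes reached it. Of the 10 receptor genes, 9 were higher and 1 lower. Over all 30 receptor genes, 21 had a positive log2 fold change (median 0.20). Of 4 neutrophil genes tested, Csf3r, the receptor of a neutrophil growth factor (0.70), passed beside S100a9. Of 22 genes for vesicle proteins and the fusion complex, Vamp1 passed (0.29) by edgeR, 8 had an unadjusted p under 0.05 and 4 passed by DESeq2. Over all 16278 genes, 1933 had an unadjusted p under 0.05. Of 83 ribosomal protein genes, 0 passed by edgeR or DESeq2, 8 had an unadjusted p under 0.05, and 69 had a negative log2 fold change (median -0.08).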
